A study of Cavia porcellus with 9 samples.

Results

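The vascular endothelial growth factor (VEGF) system and the oxygen-sensing pathway were described in guinea pig retina by 10 genes of the 19962 in the count table. They are the ligand gene Vegfa, the receptor genes Flt1 and Kdr, the prolyl hydroxylase genes Egln1 and Egln3, the transcription factor genes Hif1a and Epas1, and the target genes Ddit4, Adm and Bnip3. The genes were chosen by their role and from measured values of these libraries, since Vegfa, Ddit4 and Egln3 lay higher and Flt1 lower under green light. Their levels under green light are therefore a description, given without a test, and only the comparison of blue with white light was tested for them. All 10 were in the table, passed the filter on low counts and matched protein-coding genes of the same symbol in the RefSeq names table of the assembly mCavPor4.1.

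The retinas came from male Dunkin-Hartley guinea pigs, a tri-coloured stock, obtained at 2 weeks of age, assigned at random to green, blue or white light that lasted 8 weeks with equal light and dark phases, and sampled at 12 weeks. Each light had 3 libraries of flash-frozen retina, in a study of how wavelength defocus bears on refractive development. In each light 2 of the 3 libraries carry the same animal number, namely libraries 1 and 2 of green, libraries 2 and 3 of blue, and libraries 1 and 2 of white, so that the 9 libraries stand for 6 animal labels. Libraries 1 and 2 of green even share the same eye label and differ by a suffix "-B" on library 1, which library 3 of white also carries and which the labels do not explain. The animal labels of library 1 of blue and library 3 of white share their ending, and whether they name 1 animal is not stated. The p-values and standard errors below count the 3 libraries of a light as separate samples, although part of their spread lies within an animal.

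As background, cells with enough oxygen hydroxylate the alpha subunits of hypoxia-inducible factor (HIF) by the prolyl hydroxylases of the Egln family, after which the von Hippel-Lindau protein marks them for breakdown. When oxygen is short the alpha subunits persist, pair with Arnt and raise the transcription of genes for vessel growth, glucose use and mitochondrial turnover, among them Vegfa and Egln3 itself. In most mammals VEGF-A from glia and pigment epithelium acts on endothelial cells through Kdr, the main signalling receptor, while Flt1 binds the ligand tightly and signals weakly. The guinea pig is unusual in that its retina has no vessels of its own and is fed from the choroid.

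Levels are in CPM, the count over the TMM-scaled library total times 1e+06, and differences are on the log2 scale with a standard error (SE) from the edgeR fit of all genes. Counts summed to between 62155041 and 74979806 per library. Adm had 64 to 178 counts in a library, and each of the other 9 genes had at least 661. RNA of whole tissue was measured, so a change in the number of cells of a type and a change in RNA per cell cannot be told apart.

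Vegfa, the ligand gene, was higher in all 3 green libraries than in any blue or white one. Its level was 207, 175 and 180.5 CPM in green libraries 1 to 3, 172, 132 and 123 CPM in blue, and 137, 135 and 153 CPM in white. The groups came closest between green library 2 and blue library 1. Green exceeded white by 0.40 ± 0.12 and blue by 0.40 ± 0.12 on the log2 scale, 1.32-fold in both cases, while the means of blue and white were 142.2 ± 25.9 and 141.9 ± 9.72 CPM (SD, n = 3 each). The 2 green libraries of animal number 11 differed 1.18-fold from each other. RefSeq lists 3 transcripts of Vegfa for the assembly mCavPor4.1, which the gene-level counts do not separate.

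Flt1, the high-affinity receptor gene, had the opposite order, with its lowest level in green. Its level was 203, 249 and 218 CPM in green, against 339.9, 325.5 and 214 CPM in blue and 386.5, 374 and 299 CPM in white. Every green library lay below every white one, but library 3 of blue lay within the green range. The difference from white was -0.66 ± 0.16 and that from blue -0.39 ± 0.16 on the log2 scale. The 2 blue libraries of animal number 32, from the right and left eye, differed 1.52-fold, more than any other such pair for this gene. Flt1 also has 3 transcripts in RefSeq. In other mammals a short one encodes a soluble decoy receptor, which these counts cannot tell from the full-length form.

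Kdr, the signalling receptor gene, did not separate the lights. It was at 165, 124 and 149 CPM in green, against 115, 139 and 129.6 CPM in blue and 126, 127 and 139 CPM in white. The 2 libraries of animal number 11 held both the highest level of all and a level below every white library, 1.33-fold apart, more than the 1.12-fold difference of the green and white means. Green minus white was 0.16 ± 0.11 on the log2 scale, 0.06 without library 1 of green, 0.27 without library 2 of green and 0.05 with the level of pigment cell markers in the fit.

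Taken per library, the ratio of Vegfa to Flt1 counts was 1.02, 0.702 and 0.827 in green, against 0.505, 0.405 and 0.574 in blue and 0.355, 0.362 and 0.512 in white. It was higher in each green library than in any other library, as follows from the choice of both genes, and blue and white overlapped. Ratios of 2 genes depend on their lengths, so only their change across libraries can be read. The ratio of Vegfa to Kdr was 1.25, 1.41 and 1.21 in green, against 1.49, 0.951 and 0.9502 in blue and 1.09, 1.07 and 1.10 in white, with green above white and the highest value in library 1 of blue.

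**Figure D1:**
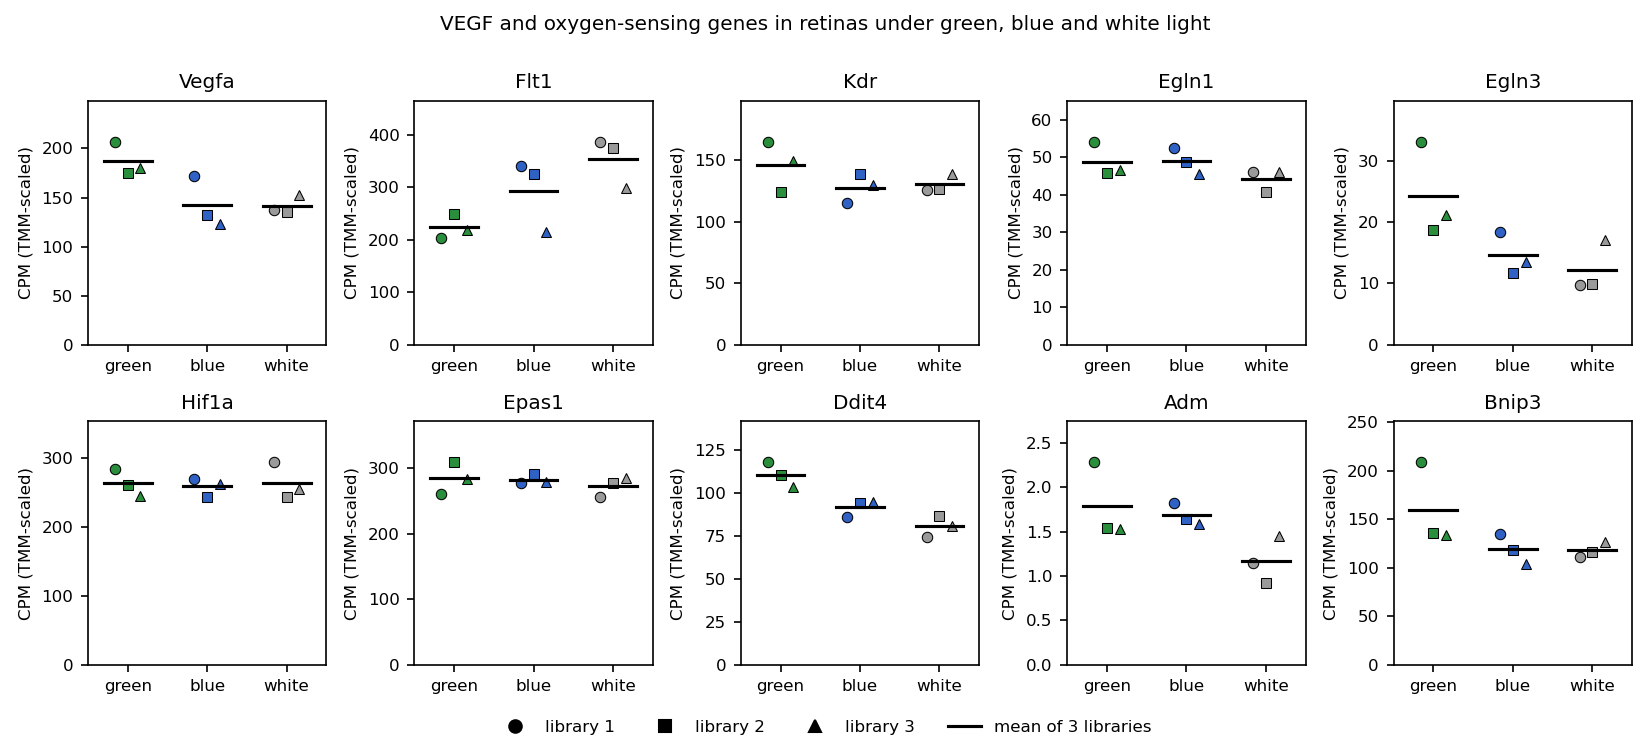
TMM-scaled CPM (vertical axes, from 0) of the 10 genes in the 9 libraries, by light; symbols mark libraries 1 to 3 and bars the mean of 3 libraries. Vegfa, Egln3 and Ddit4 have all 3 green libraries above all others, Flt1 has its 3 green libraries below all white ones, and Hif1a and Epas1 overlap in every light.

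Egln3, the inducible prolyl hydroxylase gene, showed the widest relative span of the 10 between green and white. It was at 33.1, 18.6 and 21.1 CPM in green, against 18.5, 11.8 and 13.5 CPM in blue and 9.74, 9.87 and 17.1 CPM in white. The 3 green libraries lay above all others, although library 2 of green, at 18.64 CPM, was close to library 1 of blue, at 18.46 CPM. Green exceeded white by 0.99 ± 0.27 and blue by 0.74 ± 0.27 on the log2 scale. The libraries of animal number 11 differed 1.78-fold. Without the 2 libraries of suffix "-B", or without library 1 of green alone, the difference from blue was 0.46, and without both "-B" libraries that from white was 1.01.

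Egln1, the prolyl hydroxylase gene that sets most HIF turnover in well-oxygenated cells, varied little. It was at 54.2, 45.8 and 46.6 CPM in green, against 52.4, 48.8 and 45.6 CPM in blue and 46.15, 40.8 and 46.1 CPM in white. All 3 lights overlapped, with means of 48.88 ± 4.65 CPM in green, 48.96 ± 3.39 CPM in blue and 44.3 ± 3.09 CPM in white (SD, n = 3 each). Green minus white was 0.14 ± 0.10 on the log2 scale, or 0.06 without library 1 of green. The ratio of Egln3 to Egln1 was 0.611, 0.407 and 0.453 in green, against 0.352, 0.241 and 0.295 in blue and 0.211, 0.242 and 0.372 in white. The 3 green libraries stood above the rest, as follows from the choice of Egln3 and the small variation of Egln1.

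The genes of the HIF alpha subunits had the smallest differences of the 10 between green and white. Hif1a was at 284, 260.5 and 245 CPM in green, against 269.8, 243 and 262 CPM in blue and 294, 242.5 and 255 CPM in white. Its extremes, 294 and 242.5 CPM, were the right and left eye of animal number 6 in white light. Epas1, which encodes HIF-2 alpha, was at 261, 310.1 and 284 CPM in green, against 278, 292 and 279 CPM in blue and 257, 277.5 and 286 CPM in white. Green minus white was -0.003 ± 0.091 for Hif1a and 0.06 ± 0.08 for Epas1 on the log2 scale. Oxygen acts on both mainly through protein stability, which RNA counts do not measure.

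Ddit4 encodes REDD1, which restrains the growth kinase mTORC1 and is induced by low oxygen, glucocorticoids and the stress factor ATF4. It was at 118, 110.5 and 103 CPM in green, against 86.0, 94.2 and 94.4 CPM in blue and 74.3, 86.7 and 80.5 CPM in white. The green libraries stood above all others, and blue overlapped white at 1 library each. Green exceeded white by 0.46 ± 0.09 and blue by 0.27 ± 0.09 on the log2 scale. Its spread within a light was small, with a coefficient of variation of 6.69% in green, 5.22% in blue and 7.72% in white.

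Adm encodes adrenomedullin, a peptide that widens vessels. It was at 2.28, 1.54 and 1.53 CPM in green, against 1.82, 1.64 and 1.58 CPM in blue and 1.149, 0.925 and 1.45 CPM in white. Green and blue overlapped, and both lay above all white libraries. The difference of green from white was 0.61 ± 0.27 on the log2 scale, or 0.38 without library 1 of green. Green minus blue was 0.09 ± 0.27, and its sign turned to -0.13 without that library or without both "-B" libraries and to -0.08 with pigment cell markers in the fit.

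Bnip3 encodes a mitochondrial protein that promotes the removal of mitochondria. It was at 209, 136 and 133 CPM in green, against 135, 118 and 104 CPM in blue and 111.5, 116.5 and 126 CPM in white. Green lay above white, but the difference rested largely on library 1 of green. Green minus white was 0.43 ± 0.16 on the log2 scale with all libraries and 0.19 without that library, and green minus blue was 0.42 ± 0.16 and 0.19 without both libraries of suffix "-B".

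Ordered by mean level, Vegfa, Egln3, Ddit4, Epas1, Adm and Bnip3 had green first, blue second and white last. In that order green and blue were apart for Vegfa, Egln3 and Ddit4, blue and white were apart for Adm, and the other neighbours overlapped. Flt1 had the reverse order with both pairs of neighbours overlapping. In green against white, 6 of the 10 genes had libraries that did not overlap, 5 higher and 1 lower, where 10.1% of all 15469 genes tested did not overlap in either direction. In green against blue, 3 of 10 were higher without overlap, against 14.2% of all genes. The choice of the genes used these contrasts, so nothing is read from either count. The median log2 difference of the 10 was 0.28 in green against white and 0.14 in green against blue, beside 0.009 and -0.003 over all genes tested. Without library 1 of green the medians of the 10 were 0.15 and 0.09, and the median in green against blue was 0.06 with pigment cell markers in the fit.

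**Figure D2:**
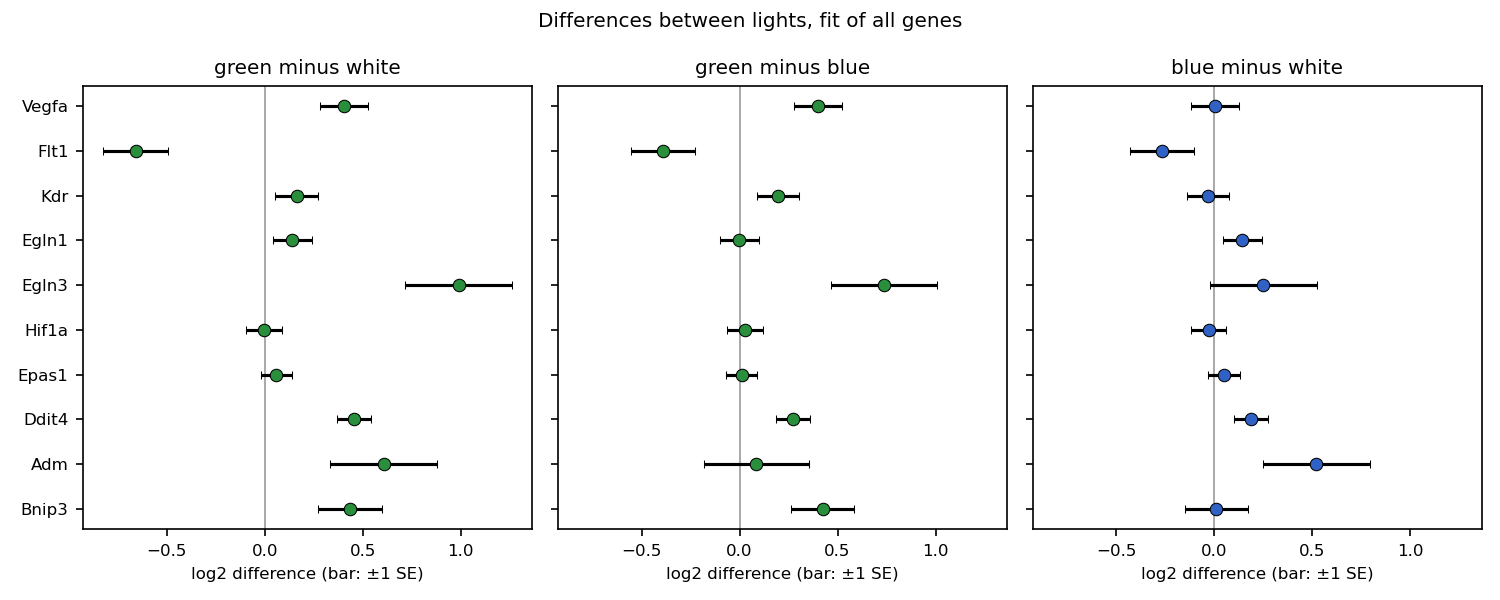
Log2 differences of the 10 genes between lights (horizontal axis) from the fit of all genes, with bars of ±1 SE, in the order green minus white, green minus blue and blue minus white. Egln3 lies farthest to the right and Flt1 farthest to the left in green minus white, while Hif1a and Epas1 lie within 0.06 of 0 in all 3 panels.

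Blue light was set against white light with the edgeR quasi-likelihood test, in which green libraries enter only through the scaling, the filter and the shared estimate of spread. The blue and white libraries were those that green was compared with when the genes were chosen. The test is therefore not independent of that choice. It called 0 of the 10 genes at an adjusted p under 0.05, where it called 0.00646% of all genes tested, and 0 of 10 reached an unadjusted p under 0.05, where 4.45% of all genes did. DESeq2 also called 0 of the 10, against 0.181% of all genes with an adjusted p, and voom called 0. Ddit4 came nearest, with 91.5 ± 4.78 CPM in blue and 80.5 ± 6.21 CPM in white (SD, n = 3 each), that is 0.19 ± 0.09 on the log2 scale (edgeR unadjusted p = 0.0560, adjusted p = 1). Adm was the 1 gene of 10 whose libraries did not overlap between blue and white, where 9.89% of all genes did not. Its levels of 1.68 ± 0.125 CPM in blue and 1.17 ± 0.262 CPM in white gave a log2 difference of 0.52 ± 0.27 (edgeR unadjusted p = 0.0831, adjusted p = 1).

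For the other 8 genes the log2 difference of blue from white ran from -0.27 ± 0.16 for Flt1 to 0.25 ± 0.27 for Egln3. The Flt1 value was -0.09 without library 3 of blue, and the Egln3 value was 0.04 without library 1 of blue and 0.56 without the 2 libraries of suffix "-B". The median over the 10 was 0.03, beside 0.005 over all genes tested. It was 0.10 without library 3 of blue, 0.06 without library 3 of white and 0.02 without library 1 of white. A p above the threshold does not show that the lights were alike. The SE was 0.12 for Vegfa, around a difference of 0.004, and 0.09 for Hif1a, around -0.03. Both count the libraries as separate samples, so they do not give the precision between animals. With counts summed per animal label the Vegfa difference was 0.05 ± 0.14.

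A single library, number 1 of green, held many of the extreme values. It had the highest level of all 9 for 7 of the 10 genes, namely Vegfa, Kdr, Egln1, Egln3, Ddit4, Adm and Bnip3, and the lowest for Flt1. The same library was the highest for 16.9% of all genes tested and the lowest for 19.1%, the largest shares of any library in both cases. Its summed level of rod and cone markers, 63110 CPM, was the lowest of the 9, the others lying between 74000 and 82350 CPM. Within white, library 3, the other one of suffix "-B", was the highest of the 3 for 6 of the 10 genes, where it was so for 30.1% of all genes. Within blue, library 1 was the highest for 7 of 10, against 40.8% of all genes. The part of the suffix, the animal or the makeup of the tissue in these values was not tested. Without library 1 of green the log2 difference of green from white was 0.32 for Vegfa, 0.70 for Egln3 and 0.40 for Ddit4, and without both libraries of suffix "-B" it was 0.38, 1.01 and 0.40, with -0.71 for Flt1.

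The other genes of the pathway were taken from fixed lists of 82 symbols, of which 79 were in the table and 74 passed the filter. In edgeR 0 of the 74 passed at an adjusted p under 0.05 in green against white, in green against blue and in blue against white, with smallest adjusted p of 0.768, 0.586 and 0.935. Of all genes tested, 0.00646%, 0% and 0.00646% passed in the same 3 comparisons. At an unadjusted p under 0.05 stood 12 of the 74 in green against white, all higher, where 5.81% of all genes did. In green against blue they were 11 higher and 2 lower, where 7.18% of all genes did, and in blue against white 3 higher and 1 lower, against the 4.45% given above. DESeq2 and voom called 0 of the 74 in each comparison, while DESeq2 called 0.155% of all genes in green against white and 0.359% in green against blue.

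Other ligand and receptor genes of the VEGF family varied in both directions. Of 4 ligand genes 4 were higher in green than in white and 3 higher in green than in blue, and of 3 receptor genes 2 and 1 were. Vegfb, which acts through Flt1, was at 48.9 ± 2.51 CPM in green, 46.1 ± 0.955 CPM in blue and 47.0 ± 3.39 CPM in white (SD, n = 3 each). Pgf, another ligand of Flt1, was at 3.98 ± 0.297 CPM in green, 3.69 ± 0.679 CPM in blue and 3.52 ± 0.950 CPM in white. Vegfc, the lymphatic ligand, was at 1.38 ± 0.244 CPM in green, 1.86 ± 0.199 CPM in blue and 0.906 ± 0.383 CPM in white, and its 3 blue libraries lay above the white ones (log2 difference 1.03 ± 0.32, edgeR adjusted p = 0.935). Nrp1, a co-receptor of VEGF-A, was at 6.66, 7.89 and 6.42 CPM in green, against 10.2, 8.06 and 8.25 CPM in white, below white in all 3 green libraries as Flt1 was (log2 difference -0.34 ± 0.16, edgeR adjusted p = 0.852). In blue Nrp1 was at 6.87, 8.42 and 8.82 CPM, which overlapped both. Nrp2 and Flt4 overlapped between all lights.

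Other genes of HIF turnover, a list without Egln1 and Egln3, mostly lay slightly lower in green. Egln1 and Egln3 themselves were higher in green than in white, by 0.14 and 0.99 on the log2 scale. Of the 7 genes listed, 1 was higher in green than in white and 0 in green than in blue, where 52.4% and 49.4% of all genes were. The median log2 difference was -0.07 in green against white, -0.10 in green against blue and 0.05 in blue against white. Hif1an, the gene of the asparagine hydroxylase that blocks HIF's coactivator, was at 29.7 ± 0.995 CPM in green, 29.98 ± 0.777 CPM in blue and 31.1 ± 2.15 CPM in white (SD, n = 3 each). Egln2, a further prolyl hydroxylase gene, was at 40.2 ± 3.47 CPM in green, 41.2 ± 1.05 CPM in blue and 42.0 ± 3.27 CPM in white, and Vhl, the von Hippel-Lindau gene, at 69.9 ± 6.25 CPM in green, 70.5 ± 4.09 CPM in blue and 66.5 ± 2.29 CPM in white. Green minus white was -0.07 ± 0.09 for Hif1an and for Egln2 and 0.07 ± 0.09 for Vhl on the log2 scale, each within its SE. Of the HIF subunit genes, Hif3a, another alpha subunit, was at 12.4 ± 4.81 CPM in green, 10.8 ± 2.00 CPM in blue and 10.02 ± 2.19 CPM in white. Arnt, the partner of the alpha subunits, was at 55.9, 54.5 and 50.2 CPM in green, against 45.1, 40.1 and 43.7 CPM in blue, apart from each other (log2 difference 0.32 ± 0.11, edgeR adjusted p = 0.654), while white overlapped both at 52.4, 40.1 and 51.7 CPM.

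Other textbook HIF targets leaned towards green. Of 25 tested, 20 were higher in green than in white and 21 higher in green than in blue, where 52.4% and 49.4% of all genes were. Blue exceeded white for 14 of 25, where 51.5% of all genes did. The median log2 difference was 0.23 in green against white, 0.21 in green against blue and 0.05 in blue against white. An edgeR unadjusted p under 0.05 was reached by 10 of the 25 in green against white, all higher, where 5.81% of all genes reached it. In green against blue 8 did, all higher, where 7.18% of all genes did. After adjustment 0 passed in edgeR. Green lay above white without overlap for 9 of 25 and above blue for 7 of 25, beside the 10.1% and 14.2% given above. A hypoxia list of these libraries had been seen to lie higher in green before these targets were listed, and the 2 green comparisons share the green libraries, so the counts are no independent evidence of a direction.

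Kdm3a, an oxygen-dependent histone demethylase gene, was at 117, 93.4 and 93.8 CPM in green, against 104, 79.9 and 75.2 CPM in blue and 61.1, 61.7 and 82.1 CPM in white. Green minus white was 0.57 ± 0.15 on the log2 scale (edgeR adjusted p = 0.768). Pdk1, whose product holds back pyruvate from the mitochondria, was at 247, 206 and 205 CPM in green. It was at 221.7, 176.2 and 188.5 CPM in blue and 191, 167 and 178 CPM in white. Ankrd37, a small hypoxia-induced gene, was at 12.9, 7.17 and 9.62 CPM in green, against 12.26, 7.38 and 6.02 CPM in blue and 4.32, 5.16 and 7.03 CPM in white. For these 3 targets the green libraries stood above the white ones, narrowly so for Ankrd37, and overlapped the blue ones.

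Slc2a1, the gene of the glucose transporter GLUT1, was at 881, 805 and 700.3 CPM in green, against 536.5, 619 and 805 CPM in white, so that library 3 of white lay within the green range. P4ha1, a collagen prolyl hydroxylase gene, was at 63.0, 35.5 and 45.04 CPM in green, against 55.9, 29.9 and 23.3 CPM in blue and 29.1, 29.7 and 44.2 CPM in white, and all lights overlapped. Bnip3l, the relative of Bnip3, was at 189, 161 and 158.5 CPM in green, against 184, 165.5 and 163 CPM in blue and 157, 143 and 151 CPM in white, so both coloured lights lay above white. Not all targets were higher in green than in white. Ndrg1 averaged 240.5 ± 32.7 CPM in green, 255 ± 8.73 CPM in blue and 249 ± 18.8 CPM in white (SD, n = 3 each). Ca9, an acid-handling enzyme gene, averaged 6.02 ± 0.946 CPM in green, 4.31 ± 0.696 CPM in blue and 6.13 ± 0.712 CPM in white. Angptl4 averaged 1.52 ± 0.760 CPM in green, 2.18 ± 0.79 CPM in blue and 2.64 ± 0.970 CPM in white. Against blue, Ca9 was higher in green, while Ndrg1 and Angptl4 were lower. Epo, the erythropoietin gene, had 0 counts in all 9 libraries. If a count is a single fragment, which is not certain here, this allows up to 0.0385 to 0.0483 CPM per library (3 counts of its scaled total, counting error only).

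Library 1 of green was the highest of all 9 for 18 of the 25 HIF targets, beside the 16.9% of all genes given above. Without it, 20 of 25 were still higher in green than in white, with a median log2 difference of 0.20, and 17 of 25 higher in green than in blue, with a median of 0.13. Without both libraries of suffix "-B" the counts were 21 and 17 of 25. Over all alternatives the count of targets higher in green than in white ran from 20 to 22. The count of targets higher in blue than in white ran from 10, without library 1 of white, to 16, and without library 1 of white the median log2 difference was -0.04.

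**Figure D3:**
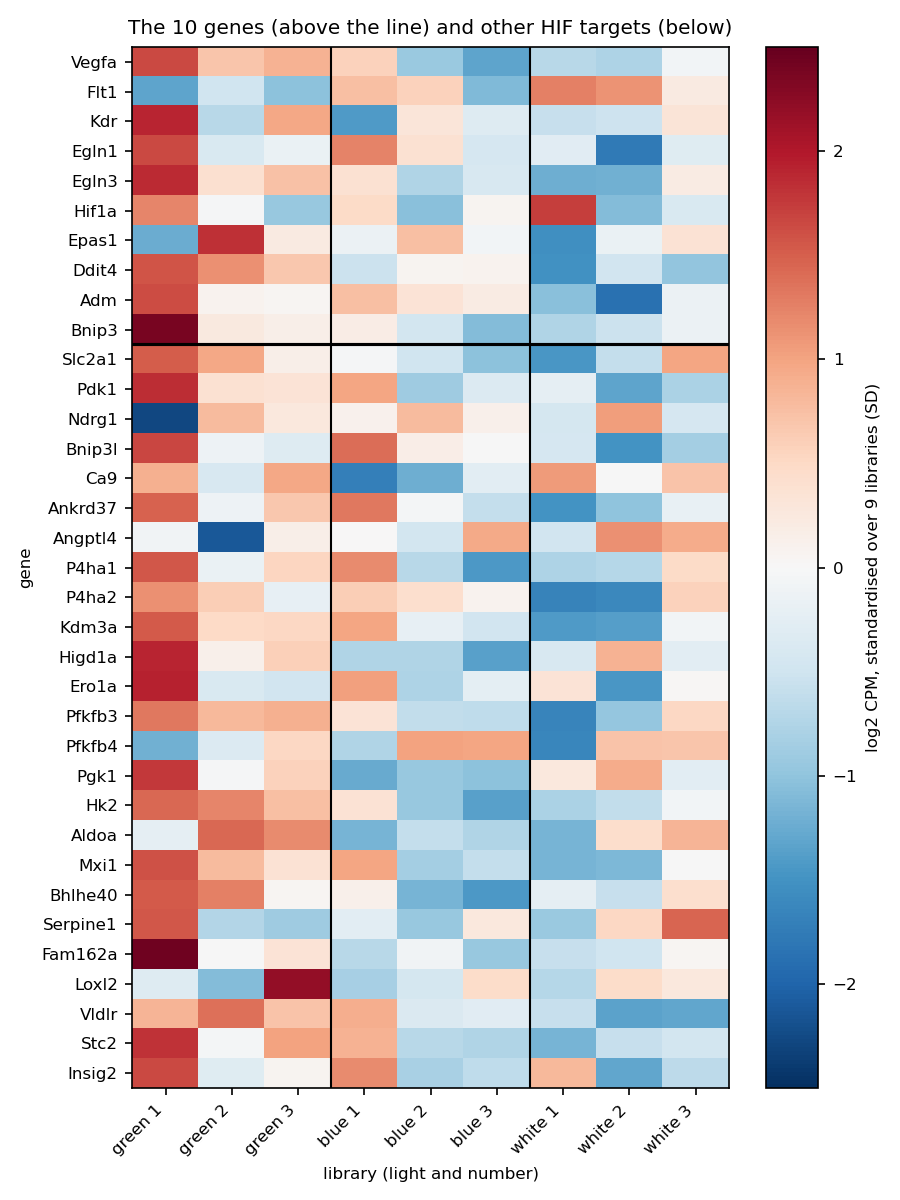
Log2 CPM of the 10 genes (above the line) and of 25 other HIF targets (below) in the 9 libraries, each gene standardised over the libraries (colour, in SD; red is higher). Library 1 of green is the highest of the 9 for 7 of the 10 genes and for 18 of the 25 targets, and library 3 of white is the highest of its light for 6 of the 10 genes.

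Genes of the other pathways that meet at Ddit4 and Adm were described in the same way. Of 6 glucocorticoid targets, 4 were higher in green than in white, with a median log2 difference of 0.07, and 6 of 6 were higher in green than in blue, with a median of 0.06. Of 6 ATF4 targets, 2 were higher in green than in white (median -0.01) and 3 higher in green than in blue (median 0.01). Of 9 genes of the mTORC1 brake and its kinase, 4 were higher in green than in white (median -0.03) and 4 higher in green than in blue (median -0.04). In green against blue 3 of the 9 were lower without overlap, where 14.2% of all genes did not overlap. At an edgeR unadjusted p under 0.05 stood 2, both lower, where 7.18% of all genes did. Of 3 genes of the adrenomedullin receptor 1 was higher in green than in white. Its receptor gene Calcrl was at 0.457 ± 0.286 CPM in green, against a mean of 0.387 ± 0.248 CPM in white (SD, n = 3 each). Of 8 angiogenic signal genes 6 were higher in green than in white (median 0.26). Angpt1, the ligand of the endothelial receptor Tek, was at 35.7, 39.0 and 34.9 CPM in green, against 33.89, 29.5 and 28.8 CPM in white (log2 difference 0.25 ± 0.10, edgeR adjusted p = 0.840). In blue Angpt1 was at 37.02, 33.85 and 33.81 CPM, which overlapped both, and green minus blue was 0.07 ± 0.10 on the log2 scale. Angpt2, its antagonist, stayed under 1.3 CPM in all libraries. These short lists are described by their counts only.

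**Figure D4:**
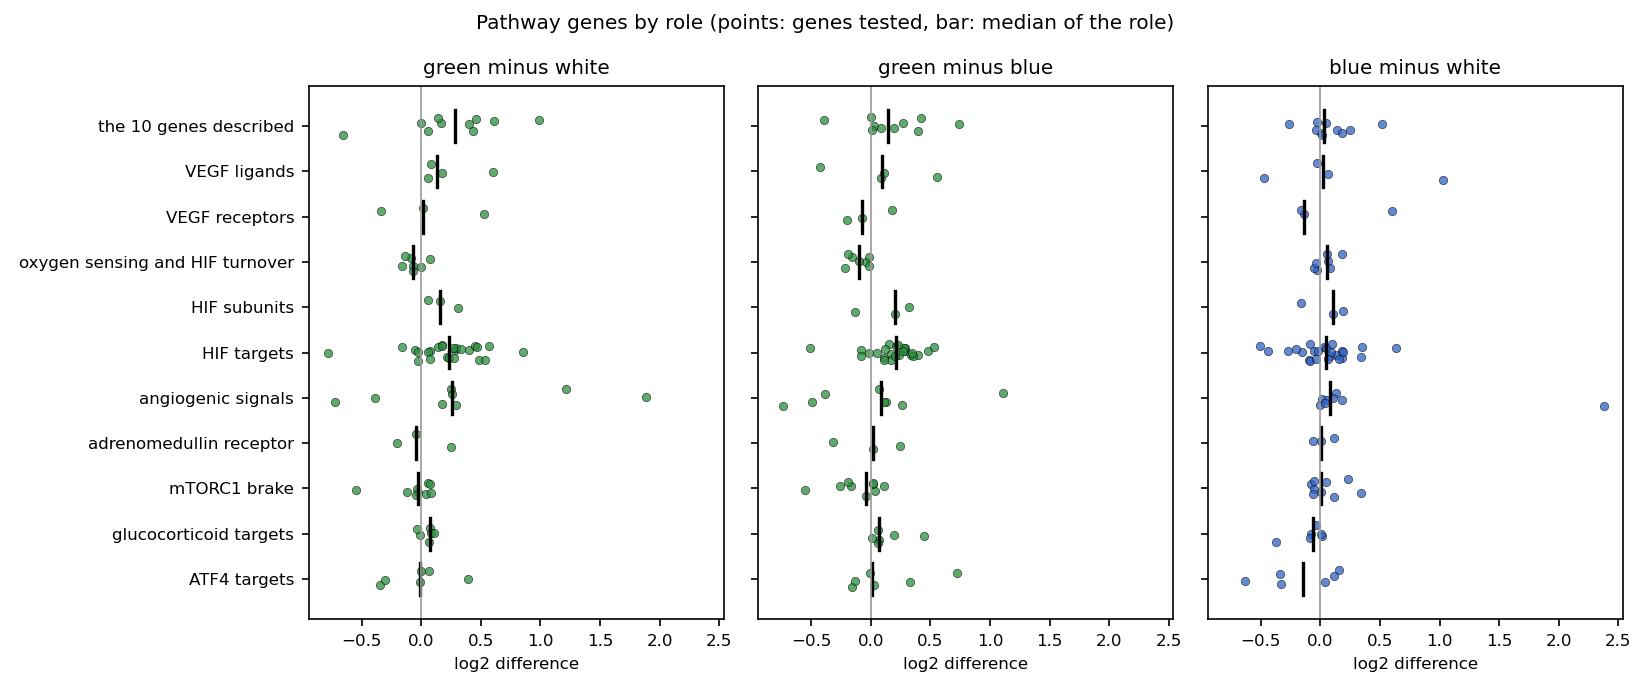
Log2 differences between lights (horizontal axis) of the 10 genes and of the 74 other pathway genes tested, by role; points are genes and bars the median of the role. HIF targets lie mostly to the right in both green panels, with medians of 0.23 and 0.21, and around 0.05 in blue minus white.

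Endothelial markers spanned a wide range. Flt1 and Kdr, known as endothelial genes in other tissues, were at 202.7 to 386.5 CPM and at 115 to 165.1 CPM over the 9 libraries. Of 13 markers in the table, 8 passed the filter on low counts. Esam was at 16.6 to 21.5 CPM over the 9 libraries, Plvap at 5.39 to 14.9 CPM, Eng at 3.46 to 5.95 CPM, Egfl7 at 2.96 to 4.69 CPM and Vwf at 0.873 to 1.61 CPM. The other 8 were lower, with Pecam1 at 0.112 to 1.18 CPM, Sox18 at 0.281 to 0.667 CPM, and Cldn5, Erg, Emcn and Robo4 at 0 to at most 0.115 CPM. Cdh5, the endothelial cadherin gene, ran from 0 to 0.0428 CPM under green light and from 0.136 to 0.191 CPM under blue. White libraries ran from 0.0433 to 0.225 CPM. Its counts were 3, 0 and 3 in green libraries 1 to 3, against 8, 3 and 14 in the white ones. Green libraries 1 and 3 and white library 2 thus held the same count, and scaling alone put white higher. Blue libraries held 10 to 13 counts and lay above green, where 14.2% of all genes did not overlap in either direction. These are few counts, and the edgeR adjusted p of green was 0.854 against white and 0.656 against blue. Sox17 had 0 counts throughout. Of the angiogenic signal genes, Tie1 had counts in 1 library and Tek ran from 0 to 1.14 CPM. The summed level of the 13, most of it from Esam and Plvap, was 34.4 to 39.6 CPM in green, 39.4 to 44.1 CPM in blue and 37.6 to 42.2 CPM in white, with overlap of all lights. Of the 8 tested, 3 were higher in green than in white, 1 higher in green than in blue and 6 higher in blue than in white, and 0 passed in edgeR, DESeq2 or voom. The part of vascular cells in the Flt1 levels was not tested. Mural cell markers summed to 26.5 to 36.2 CPM in green, 27.9 to 33.8 CPM in blue and 30.3 to 35.6 CPM in white.

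Markers of pigment epithelium and pigment cells, another known source of VEGF-A, differed widely between libraries of a light. Their summed level was 52.9, 305 and 40.5 CPM in green, against 206, 233 and 307 CPM in blue and 135, 325 and 78.2 CPM in white. All 9 were lower on average in green than in white, with a median log2 difference of -0.39, and 0 passed in edgeR (0 at an unadjusted p under 0.05; DESeq2 and voom also called 0). Library 2 of green had 102 CPM of Rpe65, the isomerase gene of the visual cycle, and libraries 1 and 3 had 14.4 and 7.76 CPM, while Vegfa was at 175 CPM in library 2 and at 207 and 180.5 CPM in libraries 1 and 3. Libraries 1 and 2 of green carry the same animal number, and how Vegfa varies with Rpe65 was not tested. Pmel, a melanosome gene, averaged 35.04 ± 50.3 CPM in green, 76.2 ± 18.8 CPM in blue and 44.5 ± 24.9 CPM in white (SD, n = 3 each). With the mean log2 level of these markers in the fit, green minus white was 0.40 for Vegfa, 0.88 for Egln3, 0.51 for Ddit4 and -0.58 for Flt1. That mean weighs all 9 markers alike, and Tyr, Tyrp1 and Dct reached at most 0.708, 1.17 and 0.751 CPM in any library. It was 2.19 in library 2 of green and 2.67 in library 1 of blue, although their summed levels were 305 and 206 CPM. The covariate thus did not follow the summed level. Müller glia markers, of the glia that also make VEGF-A, summed to 10360 to 11260 CPM in green, 11290 to 12770 CPM in blue and 10210 to 12160 CPM in white, so that all 3 green libraries lay below all 3 blue ones, in the comparison in which Vegfa, Egln3 and Ddit4 also stood apart, and green and white overlapped. Of 10 Müller glia markers 1 was higher in green than in blue and 4 higher in green than in white. Microglia markers summed to 34.6 to 49.6 CPM in green, 36.8 to 45.01 CPM in blue and 37.2 to 47.2 CPM in white, with overlap of all lights. Inner neuron markers summed to 2018 to 2161 CPM in green, 2070 to 2158 CPM in blue and 1990 to 2144 CPM in white, and 2 red blood cell markers to 2.21 to 2.71 CPM in green, 2.34 to 3.79 CPM in blue and 2.25 to 3.02 CPM in white. Rod and cone markers, the defining genes of retina, were abundant in every library. The part of these cells in the values of the 10 genes was not tested beyond the covariate fit.

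**Figure D5:**
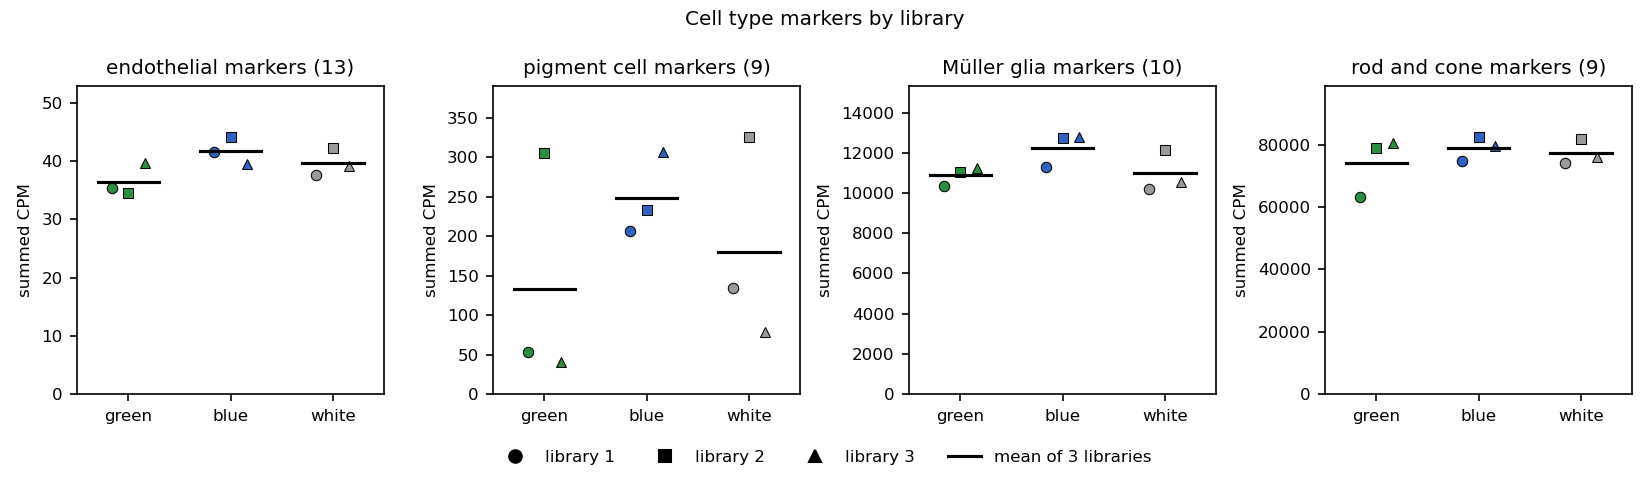
Summed CPM (vertical axes, from 0) of endothelial, pigment cell, Müller glia and rod and cone markers in the 9 libraries by light; symbols mark libraries 1 to 3 and bars the mean. Pigment cell markers range from 40.5 to 325 CPM with overlap of the lights, and library 1 of green is lowest in rod and cone markers at 63110 CPM.

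Genes with the pattern most like Vegfa, Ddit4, Egln3 and Flt1 were sought among 10598 other genes of at least 5 CPM on average, by the root mean square difference of standardised log2 levels over the 9 libraries, which is 0 for the same pattern. Closest to Vegfa was Hk2 at 0.219 SD, the gene of hexokinase 2 and one of the HIF targets listed, with 744, 726 and 688.5 CPM in green, against 659, 568.5 and 543 CPM in blue and 578, 590.2 and 628 CPM in white. Rarg, a retinoic acid receptor gene, followed at 0.331 SD and Cplx4, a complexin gene of retinal synapses, at 0.345 SD. Closest to Egln3 was the collagen gene Col1a1 at 0.176 SD, then the HIF targets Mxi1 at 0.302 SD and Pfkfb3 at 0.315 SD. Pfkfb3, which drives glycolysis, was at 249, 226 and 229.7 CPM in green, against 207, 172 and 172 CPM in blue and 141.5, 161 and 214 CPM in white. Ddit4 was closest to Rab44 at 0.251 SD, Acot13 at 0.310 SD and Rflna at 0.367 SD, and Flt1 to Casp2 at 0.321 SD, N4bp1 at 0.361 SD and Cenpo at 0.391 SD. Among the 10 genes themselves, Adm and Egln1 were the most alike at 0.409 SD, followed by Vegfa and Egln3 at 0.417 SD and Vegfa and Bnip3 at 0.440 SD, while Ddit4 and Flt1 were the least alike at 1.79 SD. These distances describe 9 libraries that in part share an animal.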

How the data were processed

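The authors deposited whole-number counts per gene for 9 libraries, and per the labels' protocols the RNA was taken up in Trizol and sequenced with paired ends. The aligner, counting tool, strand setting, genome build and annotation are not stated in the labels used, so no coordinates are printed. Low counts are uneven (2014 values equal 4 and 472 equal 3), so a unit may not be a single fragment.

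All 9 libraries were fitted in edgeR 4.0.16 (R 4.3.3) with light as the only term, TMM scaling and filterByExpr (minimum count 10, minimum total 15), which left 15469 genes. The quasi-likelihood test was tried on simulated data first. P-values were adjusted by Benjamini-Hochberg across the genes that passed. DESeq2 1.42.0 and voom of limma 3.58.1 were alternatives, beside other scaling, no filter, counts divided by 4, counts summed per animal label, single comparisons, pigment cell markers as a covariate and libraries left out. Members and gene lists were chosen with earlier results of these data known. Genes named are the 10 members, fixed names of the lists, any list gene past the threshold and the 3 genes closest to each of 4 members. The endothelial markers other than Pecam1 and Cdh5, the pigment cell markers Tyr, Tyrp1 and Dct, and Tie1 and Epo were named after their values were seen. Library numbers follow the order of deposition and pair nothing.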

Additional observations from a re-analysis of the deposited data

How the results depend on the processing

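Members and other pathway genes called stayed at 0 in every comparison tested, under all 18 alternatives. The count of all genes called, 1 in blue against white, was 28 with DESeq2, 12 without both libraries of suffix "-B", and 0 with voom, with counts divided by 4 and when only the 6 libraries compared were fitted. In green against white, 1 gene became 24 with DESeq2, 10 without the "-B" libraries, and 0 with voom, with divided counts, with only 6 libraries and with the pigment cell covariate. In green against blue, 0 became 48 with DESeq2 and 1 in a fit of 6 libraries. With 1 library left out the counts ran from 0 to 7, from 0 to 6 and from 0 to 4 in these comparisons. The cause was not tested.

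In blue against white 15 of 180 member values changed sign, none of them called. Vegfa was at -0.0059 with no filter and -0.0088 with voom, and Kdr at 0.0028 without the "-B" libraries. With 1 library left out the log2 values ran from -0.155 to 0.097 for Vegfa, -0.095 to 0.038 for Kdr, -0.086 to 0.045 for Hif1a, -0.0042 to 0.0694 for Epas1 and -0.087 to 0.097 for Bnip3. In green against white 4 of 180 member values changed sign, those of Hif1a and Epas1, and in green against blue 17 of 180, those of Egln1, Hif1a, Epas1 and Adm. No paired analysis was possible because library numbers mark no pairs across lights. Depth limits mainly Adm and the markers under 1 CPM.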
